A study of Mus musculus with 416 samples.

Results

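The genes described here encode RIF1, the 3 catalytic subunits of protein phosphatase 1 (PP1) and both subunits of the DBF4-dependent kinase (DDK). Each locus was taken as the 50-kb bin that holds the midpoint of the gene in GRCm38, with 0.5 Mb on either side. The 6 members were Rif1, Ppp1ca, Ppp1cb, Ppp1cc, Cdc7 and Dbf4, out of 20661 autosomal protein-coding genes, and all 6 lay in bins that could be used. What was measured is when the DNA of each gene was copied during S phase. It is not the expression of the gene, and the amount of RIF1 left after the siRNA cannot be read from these data.

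DDK, made of the CDC7 kinase and its activator DBF4, phosphorylates the MCM helicase and so lets licensed replication origins fire. RIF1 brings PP1 to chromatin, where the phosphatase removes phosphates that DDK has placed on MCM, and this holds back origins in late-replicating DNA. These genes therefore code for opposing arms of the control of replication timing, which takes shape over the cleavage divisions of the mouse embryo.

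The cells were blastomeres of (C57BL/6J xCBA) x DBA/2J embryos. Zygotes had been injected with 20 µM of siControl (siCont) or siRif1 between 17 and 18 hours after hCG and were cultured in KSOM to the 4-cell, 8-cell or morula stage. Control embryos gave 49, 60 and 44 cells at these stages, and siRif1 embryos 51, 50 and 45. No label ties a cell to an embryo, litter or batch, so each of the 6 groups counts as 1 sample and no test between groups was possible. All intervals (exact 95% Clopper-Pearson) therefore cover the counting of cells only, not the spread between embryos.

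Each cell had a state, replicated or not, at 88.1 to 94.1% of 49264 autosomal bins, and read depth per cell is unknown. The replicated share of a locus is the percent of measured cells in which its bin was replicated. Group means over the 46015 used bins ran from 43 to 50.5%. Shares were therefore also centred on the group mean, and the shift is the centred share in siRif1 minus that in siCont, in percentage points. A negative shift is called later and a positive shift earlier. A shift of 20 points or more was counted as large. The percent of a cell's measured bins that were replicated is called its progress.

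Of the 6 genes, 4 lie on chromosome 5, and promoters of 4 genes (Ppp1cb, Ppp1cc, Cdc7 and Dbf4) were matched in RefSeq (GRCm38.p6). The 2 DDK genes are shown because they were copied at different times, and both start in DNA rich in CpG. The 250 bases before the start of a transcript are given, 5′ to 3′ on the strand of the gene, with each CG dinucleotide in capitals. The last few bases of both stretches lie inside the gene spans given below.

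Cdc7, chr5:106964072-106964321, plus strand: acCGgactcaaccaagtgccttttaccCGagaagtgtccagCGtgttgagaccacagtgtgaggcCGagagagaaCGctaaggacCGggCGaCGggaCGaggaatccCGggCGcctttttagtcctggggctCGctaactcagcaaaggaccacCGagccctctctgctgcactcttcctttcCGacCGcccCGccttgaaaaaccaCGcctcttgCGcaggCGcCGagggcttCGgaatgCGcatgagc

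Dbf4, chr5:8422717-8422966, minus strand: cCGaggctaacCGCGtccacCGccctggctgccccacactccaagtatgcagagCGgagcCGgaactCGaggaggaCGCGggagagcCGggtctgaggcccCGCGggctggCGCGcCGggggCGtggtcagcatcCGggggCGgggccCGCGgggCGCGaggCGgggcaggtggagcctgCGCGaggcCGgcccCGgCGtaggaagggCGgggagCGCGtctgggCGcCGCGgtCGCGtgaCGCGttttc

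The Dbf4 stretch held 38 CG dinucleotides and the Cdc7 stretch 22, more than 98.1 and 85.2% of the 32851 promoter entries, which had a median of 6. CG reads the same on both strands, and at least 1 was present in 92.1% of entries. Ppp1cc held 33 and Ppp1cb 24, and a further Cdc7 entry held 29. The Ppp1cc entry lay wholly, and the Ppp1cb and further Cdc7 entries partly, inside the gene spans given below. Dbf4, the latest of the 6 loci in all groups but siRif1 8-cell cells, had the most CG dinucleotides of the matched promoters. Whether CG count and timing go together was not tested.

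Rif1, on chromosome 2 (chr2:52072815-52126769), was above the group mean in all 6 groups, and its place in the order of bins differed most between treatments at the 4-cell stage. There, 27 of 49 control blastomeres had copied it (55.1%, interval 40.2 to 69.3%), against 36 of 51 after siRif1 (70.6%, 56.2 to 82.5%). At the 8-cell stage it was replicated in 40 of 60 (66.7%, 53.3 to 78.3%) and 28 of 50 (56%, 41.3 to 70%) cells. In morulae the counts were 28 of 44 (63.6%, 47.8 to 77.6%) and 26 of 45 (57.8%, 42.2 to 72.3%). The intervals of the 2 treatments overlapped at every stage. After centring, Rif1 had a shift of 11.6 points at the 4-cell stage, -4.49 points at the 8-cell stage and -6.45 points in morulae. Only the first lay away from the median of bins of like timing. The bins of the same timing class, 1 of 5 equal classes ranked by control cells of the other 2 stages, had median shifts of 1.15, -4.49 and -6.78 points.

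Single cells show how Rif1 replication followed progress. In siCont 8-cell blastomeres, the cells with Rif1 replicated had progress of 34.1% at the lowest, 53.8% at the median and 97.3% at the highest. Cells without it ran from 9.61 to 60.9% with a median of 34.2%. Below 50% progress Rif1 was replicated in 16 of 34 of these siCont cells, and also in 16 of 34 siRif1 cells. Above 50% these counts were 24 of 26 and 12 of 16. Of 4-cell blastomeres below 50%, 10 of 29 control cells had copied Rif1 (34.5%, 17.9 to 54.3%), against 14 of 24 after siRif1 (58.3%, 36.6 to 77.9%), with overlapping intervals.

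**Figure D1:**
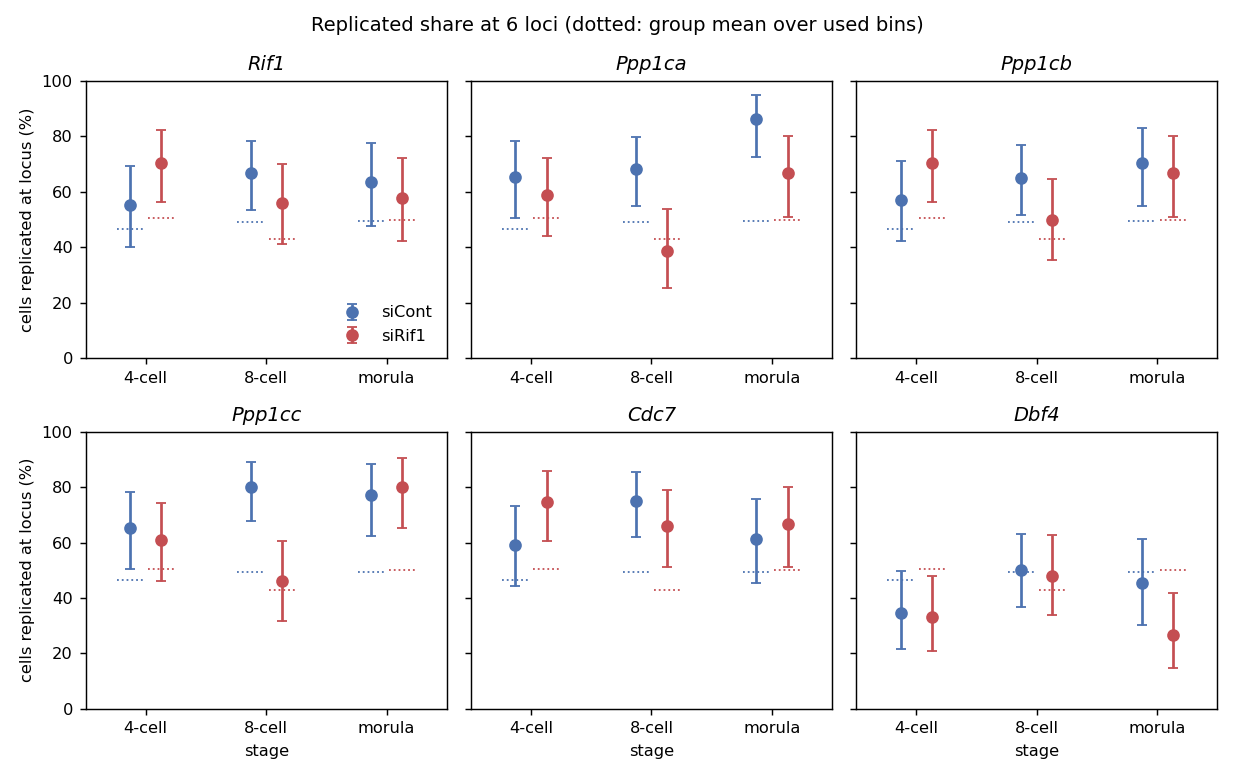
Percent of measured cells replicated at each locus (y axis) by stage (x axis) in siCont (blue) and siRif1 (red) cells, with exact 95% intervals; dotted lines are the group means over used bins. The intervals, which are of raw shares, are apart only at Ppp1ca and Ppp1cc at the 8-cell stage. How many of all bins had intervals apart was not counted. Dbf4 is the lowest locus in 5 of the 6 groups, with Ppp1ca lowest in siRif1 8-cell cells.

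Ppp1cc, which encodes the gamma catalytic subunit of PP1 (chr5:122154967-122175273), had the largest difference of the 6 loci. In 8-cell embryos 48 of 60 control blastomeres had copied it (80%, interval 67.7 to 89.2%), against 23 of 50 after siRif1 (46%, 31.8 to 60.7%), intervals that do not overlap. These intervals are of raw shares, and the group means at this stage were 49.2% in siCont and 43% in siRif1. How many of all bins had intervals apart was not counted. The Ppp1cc shift was -27.8 points, at percentile 1.77 of all used bins, whereas bins of its timing class had a median of -10.0 points. In siCont the locus stood at percentile 96.5 of bins by replicated share, and in siRif1 at 56.8.

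No siRif1 cell of the 8-cell stage had progress above 66.3%, while siCont cells reached 97.3%. With 49 cells of each treatment paired within 5 points of progress, the Ppp1cc shift was -29.9 points. Above 50% progress, 24 of 26 control cells had copied the gene, against 10 of 16 after siRif1. Below 50% these counts were 24 of 34 and 13 of 34. The siRif1 share was thus the lower on both sides of 50% progress, with overlapping intervals on each.

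At the other stages Ppp1cc had smaller shifts. In 4-cell blastomeres the counts were 32 of 49 in siCont (65.3%, 50.4 to 78.3%) and 31 of 51 in siRif1 (60.8%, 46.1 to 74.2%), a shift of -8.44 points. In morulae it was replicated in 34 of 44 (77.3%, 62.2 to 88.5%) and 36 of 45 (80%, 65.4 to 90.4%) cells, a shift of 2.14 points. Intervals overlapped at both stages. By rank Ppp1cc stood at percentile 89.7 in siCont and 75.5 in siRif1 4-cell cells, and at 83.9 and 97.8 in morulae. The bins of its timing class had median shifts of -1.67 and -9.07 points at these stages.

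Ppp1ca, the gene of the alpha catalytic subunit (chr19:4192174-4195419), was later in siRif1 cells by more than 20 points at both the 8-cell and the morula stage. Of 8-cell blastomeres 41 of 60 in siCont (68.3%, 55 to 79.7%) and 19 of 49 in siRif1 (38.8%, 25.2 to 53.8%) had copied it, again without overlap of the intervals. The shift was -23.4 points and -25 points with paired cells. In siRif1 8-cell cells its share was below the group mean of 43%, and the gene ranked at percentile 40.7 of bins, against 79.7 in siCont. In morulae these counts were 38 of 44 (86.4%, 72.6 to 94.8%) and 30 of 45 (66.7%, 51 to 80%). That shift was -20.3 points, with overlapping intervals, and it stayed at 20 points or more in 1 of the 6 alternatives that changed the value.

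In 4-cell embryos 32 of 49 control blastomeres had copied Ppp1ca (65.3%, 50.4 to 78.3%), against 30 of 51 after siRif1 (58.8%, 44.2 to 72.4%). The shift of -10.4 points was -0.853 points with paired cells, so its size depended on which cells were compared. Ppp1ca lies in gene-dense DNA. Its bin also holds the midpoints of 6 other protein-coding genes, among them Rad9a of the DNA damage checkpoint, and the values belong to the bin and not to Ppp1ca alone.

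Ppp1ca was also replicated early within control cells, down to a cell of 5.76% progress at the 4-cell stage. In siCont morulae it was replicated in 20 of 23 cells below 50% progress and in 18 of 21 above. In siRif1 morulae the counts were 14 of 24 and 16 of 21, so the treatments lay further apart in the less advanced cells. Control 8-cell cells had it in 19 of 34 below and 22 of 26 above 50%, and siRif1 cells in 13 of 34 and 6 of 15.

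Ppp1cb, the gene of the beta catalytic subunit (chr5:32458848-32493713), had smaller shifts. At the 4-cell stage 28 of 49 control cells had copied it (57.1%, 42.2 to 71.2%), against 36 of 51 after siRif1 (70.6%, 56.2 to 82.5%). The 8-cell counts were 39 of 60 (65%, 51.6 to 76.9%) and 25 of 50 (50%, 35.5 to 64.5%). The morula counts were 31 of 44 (70.5%, 54.8 to 83.2%) and 30 of 45 (66.7%, 51 to 80%). Shifts were 9.53, -8.82 and -4.37 points, and intervals overlapped at every stage. In siCont morulae progress separated the cells of this locus well. All 21 cells above 50% had it replicated, against 10 of 23 below, and no cell without it exceeded 46.1%. In siRif1 morulae it was replicated in 14 of 21 cells above 50% and 16 of 24 below, and cells without it reached 65.8%.

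Cdc7, the gene of the DDK kinase (chr5:106964315-106984440), was above the group mean in every group. The 4-cell counts were 29 of 49 in siCont (59.2%, 44.2 to 73.0%) and 38 of 51 in siRif1 (74.5%, 60.4 to 85.7%), a shift of 11.4 points. The 8-cell counts were 45 of 60 (75%, 62.1 to 85.3%) and 33 of 50 (66%, 51.2 to 78.8%), a shift of -2.82 points. In morulae 27 of 44 (61.4%, 45.5 to 75.6%) and 30 of 45 (66.7%, 51 to 80%) cells had it replicated, a shift of 4.72 points. None of these pairs of intervals was apart. Its morula shift lay above the median of its timing class, -9.07 points, by more than 10 points. By rank the siRif1 value stood at percentile 80 and the siCont value at 58.7.

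Dbf4, the gene of the regulatory subunit of DDK (chr5:8396969-8422725), was the latest of the 6 loci in all groups but the siRif1 8-cell group. At the 4-cell stage it was replicated in 17 of 49 siCont (34.7%, 21.7 to 49.6%) and 17 of 51 siRif1 (33.3%, 20.8 to 47.9%) cells. At the 8-cell stage these counts were 30 of 60 (50%, 36.8 to 63.2%) and 24 of 50 (48%, 33.7 to 62.6%). In morulae they were 20 of 44 (45.5%, 30.4 to 61.2%) and 12 of 45 (26.7%, 14.6 to 41.9%). Its shifts were -5.28, 4.18 and -19.4 points, with overlapping intervals at each stage. The morula shift just missed the size counted as large. It stood at percentile 6.63 of all used bins, and the median of its timing class had the other sign, 7.54 points. The bin also holds the midpoint of Slc25a40, a mitochondrial carrier gene.

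Dbf4 separated control 4-cell blastomeres by progress more sharply than the other 5 loci. Only 1 of 29 siCont cells below 50% had it replicated, against 16 of 20 above. Among cells between 25 and 50% this was 0 of 20 (upper limit 16.8%). In siRif1 4-cell blastomeres the counts were 5 of 24 below and 12 of 27 above 50%. In morulae above 50%, 14 of 21 control cells (66.7%) had copied Dbf4, against 8 of 21 after siRif1 (38.1%). Below 50% the counts were 6 of 23 and 4 of 24. The morula difference was thus larger in the more advanced cells, the opposite of Ppp1ca. How these differences between subsets of cells compare with counting error was not tested.

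**Figure D2:**
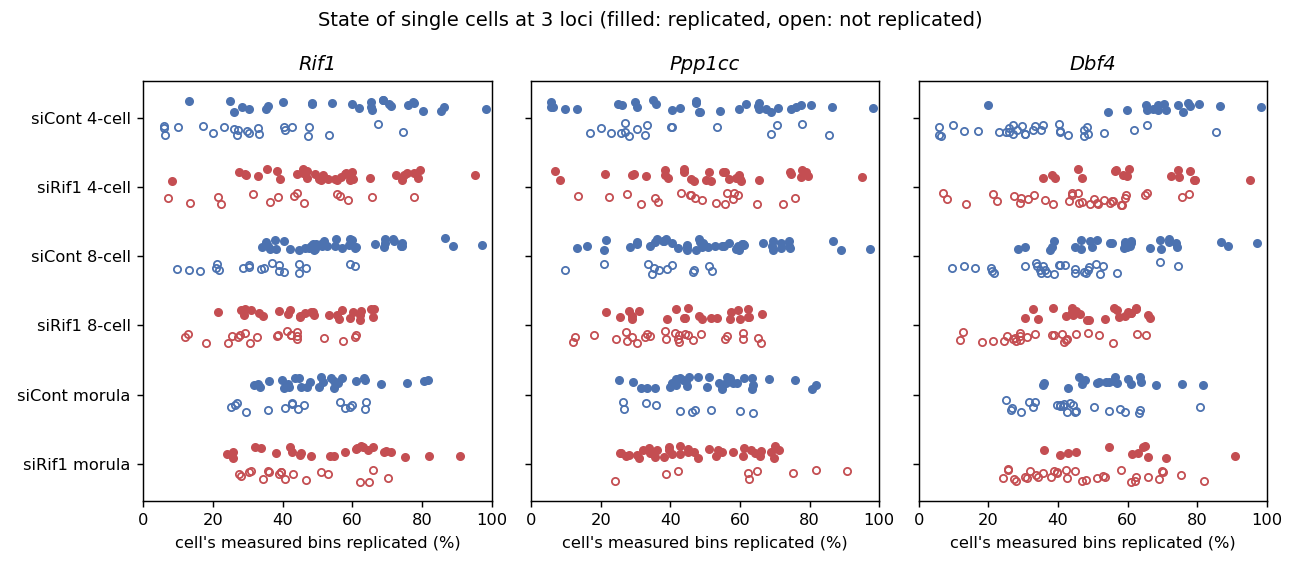
Each point is 1 cell, placed by the percent of its measured bins that were replicated (x axis) and by group (y axis), filled where Rif1, Ppp1cc or Dbf4 was replicated and open where it was not; vertical scatter is for display only. Control 4-cell blastomeres with Dbf4 replicated lie above 50% with 1 exception, and the 3 siRif1 morula cells above 75% lack Ppp1cc.

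In controls the centred shares of the loci differed from stage to stage in different ways. The intervals of the raw control shares overlapped between all stages at every locus, so these differences may be counting error. The centred share of Ppp1ca was 18.8, 19.1 and 37.0 points at the 4-cell, 8-cell and morula stages, so it was earliest in morulae. Ppp1cb had 10.6, 15.8 and 21.1 points, but by rank among bins it went the other way, from percentile 77.6 to 73.9 and 71.9. By rank Rif1 (percentile 73.8 to 61.7) and Ppp1cc (89.7 to 83.9) also fell from the 4-cell stage to morulae. The SD of shares over bins widened in the siCont groups, from 13.7 to 19.8 and 25.8 points. In siRif1 it was 14, 14.7 and 17.3 points. A negative shift did not always mean a lower rank. In morulae Rif1 stood at percentile 61.7 in siCont and 62.6 in siRif1, and Ppp1cb at 71.9 and 80, whereas Ppp1ca (97.2 and 80) and Dbf4 (42.1 and 10.9) fell. In siCont cells the other loci were as follows. Ppp1cc had 18.8, 30.8 and 27.9 points and Rif1 8.56, 17.5 and 14.2 points, both highest in 8-cell cells. Cdc7, at 12.6, 25.8 and 12 points, was also highest there, and Dbf4 had -11.8, 0.798 and -3.94 points. In siRif1 cells Ppp1cc instead had 10.3, 2.98 and 30 points, lowest at the 8-cell stage. Ppp1ca had 8.37, -4.25 and 16.7 points, and Dbf4 -17.1, 4.98 and -23.3 points. In every group neighbours in the order of shares had overlapping intervals, apart from Rif1 and Dbf4 in siRif1 morulae. Of 30 neighbouring pairs, 29 overlapped.

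Against the genome, the members' counts of shifts were mixed. At the 4-cell stage 3 of 6 loci had negative shifts, against 50.2% of used bins and 59.6% of protein-coding genes. None was large, against 1.24% of bins later and 1.36% earlier, and 3.07 and 0.953% of genes. At the 8-cell stage 5 of 6 were negative, against 47.9% of bins and 71.9% of protein-coding genes. Large later shifts were found at 2 of the 6 (Ppp1ca and Ppp1cc), against 6.43% of bins and 18.2% of genes. No large earlier shift was found, against 3.95% of bins and 0.989% of genes. In morulae 4 of 6 were negative, against 50.9% of bins and 74.8% of genes. The large later shift of Ppp1ca stood against 5.60% of bins and 9.98% of genes. No member had a large earlier shift, against 6.41% of bins and 1.14% of genes. Median shifts of the members were 2.13, -6.65 and -5.41 points at the 3 stages, and those of all genes were -2.31, -7.49 and -8.04 points. The medians of the members were thus near those of genes in general at the 8-cell and morula stages. At the 8-cell stage the members ran from -27.8 to 4.18 points. The 5th and 95th percentiles of all used bins at that stage were -21.8 and 18.8 points.

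**Figure D3:**
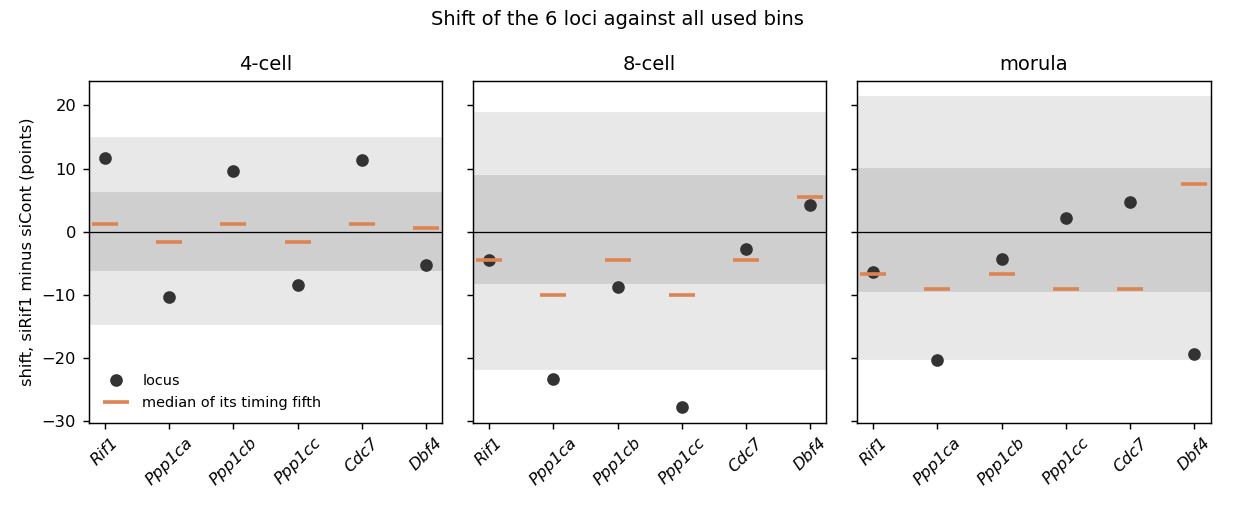
Shift of each locus (dots, y axis in points) at the 3 stages, over the range of all used bins from the 5th to the 95th percentile (light grey) and from the 25th to the 75th (dark grey); orange bars are the median shift of the timing class of the locus. Ppp1ca and Ppp1cc lie below the light band at the 8-cell stage and Ppp1ca at its lower edge in morulae.

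The windows of 21 bins around each gene show how shifts varied over 0.5 Mb on either side, but cannot isolate the midpoint bin. No interior run of a single state was shorter than 5 bins (250 kb) in any cell, so neighbouring bins are not separate measurements. A shift confined to the midpoint bin could therefore not be seen. At Ppp1cc all 21 bins were later in siRif1 8-cell cells, 20 of them by 20 points or more, with values from -31.1 to -16.8 points. At Ppp1ca all 21 were later at the 8-cell stage (8 by 20 points or more) and in morulae (4 by 20 points or more). In 8-cell cells the midpoint bin of Ppp1ca and the next bin towards the telomere shared the lowest shift of the window, -23.4 points. At Ppp1cb all 21 bins were later at the 8-cell stage, none by 20 points, and 19 of 21 in morulae, 5 of them by 20 points or more. Its morula window mean was -10.6 points, against -4.37 points at the midpoint. The later values of the PP1 loci at the 8-cell stage thus extended over the windows. How much of this extent came from the length of the runs was not tested.

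Around Dbf4 all 21 bins were later in siRif1 morulae, 11 of them by 20 points or more, and the mean over the window was -22.2 points. The difference was larger beside the gene than at it, and the lowest value was -33.1 points, 350 kb towards the telomere. That side holds Abcb1a, Abcb1b and other genes of the window. In siCont morulae the share rose from 25% at the centromeric edge to 68.2% at the telomeric edge, whereas in siRif1 it was 22.2 and 42.2%. State switches within the window were seen in 25 of 44 siCont (56.8%) and 15 of 45 siRif1 (33.3%) cells.

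Rif1 lay on a slope of timing in all groups. In siCont 8-cell cells the share rose from 46.7% at 500 kb towards the centromere to 66.7% at Rif1 and 80% at 500 kb towards the telomere. In siRif1 8-cell cells these values were 34, 56 and 72%. A switch of state within the window was found in 19 to 25 cells of each group, 40 to 50% of them. At the 4-cell stage all 21 bins were earlier in siRif1, by 2.93 to 17.9 points, as were all 21 around Ppp1cb and all 21 around Cdc7. At the 8-cell and morula stages the Rif1 window held bins of both signs, 14 later and 7 earlier at each.

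**Figure D4:**
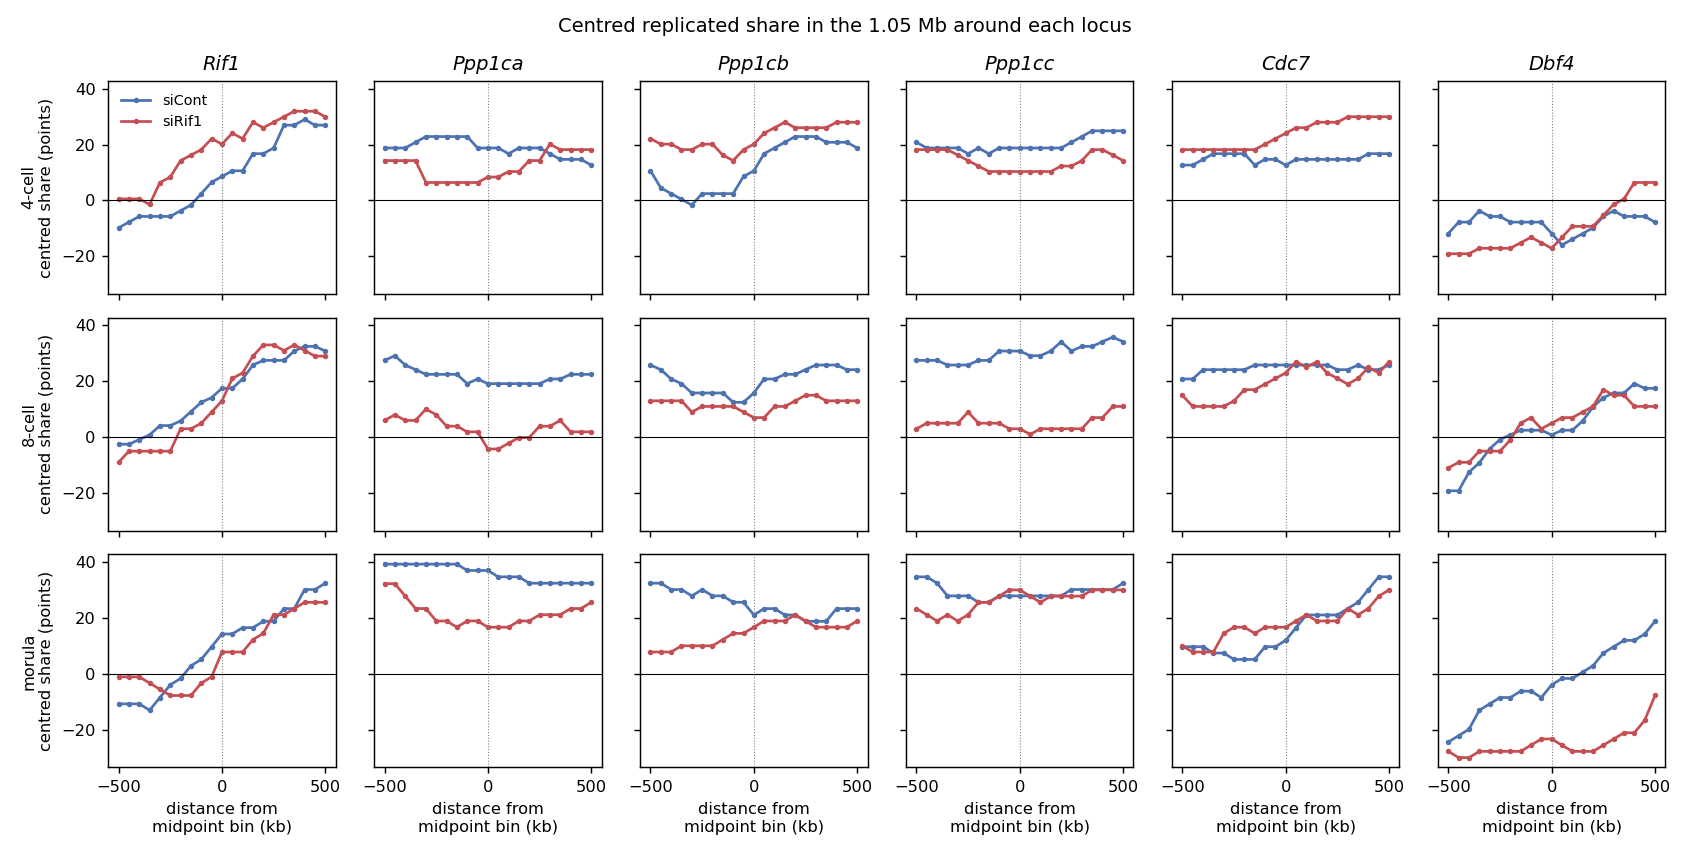
Replicated share centred on the group mean (y axis, points) against distance from the midpoint bin (x axis, kb; negative towards the centromere) in siCont (blue) and siRif1 (red) cells, by stage (rows) and locus (columns). The siRif1 line lies below the siCont line across the windows of Ppp1ca and Ppp1cc at the 8-cell stage and of Dbf4 in morulae, and both lines rise from left to right at Rif1.

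The order of 2 loci was also counted within cells, from those in which only 1 of them was replicated. Where both loci are measured, the 2 counts differ by as much as the numbers of cells with each locus replicated. Which locus is ahead, here and in the next paragraph, therefore repeats the shares given above and is not separate evidence. In siCont 8-cell cells Ppp1cc alone was replicated in 21 cells and Dbf4 alone in 3, so Ppp1cc was ahead in 87.5% of such cells (interval 67.6 to 97.3%). In siRif1 8-cell cells the counts were 11 and 12 (47.8%, 26.8 to 69.4%). Against Ppp1ca, Dbf4 was behind by 20 cells to 9 in siCont and ahead by 14 to 10 in siRif1. These 2 PP1 loci were therefore no longer ahead of Dbf4 in most such cells, although the intervals of siCont and siRif1 overlapped. In morulae the order was kept in both treatments. Ppp1cc was ahead of Dbf4 in 21 cells to 7 in siCont and 26 to 2 in siRif1, and Ppp1ca in 22 to 4 and 19 to 1.

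Within DDK, more cells had Cdc7 alone than Dbf4 alone in all 6 groups. The counts were 14 cells to 2, 21 to 6 and 13 to 6 in siCont at the 3 stages and 26 to 5, 15 to 6 and 21 to 3 in siRif1. The intervals held 50% in siCont morulae (43.4 to 87.4%) and siRif1 8-cell cells (47.8 to 88.7%). Between Ppp1cc and Cdc7, the counts in siCont were 11 to 8 at the 4-cell stage and 9 to 6 at the 8-cell stage, with intervals that held 50%. In siRif1 they were 5 to 12 (29.4%, 10.3 to 56%) and 4 to 14 (22.2%, 6.41 to 47.6%), so only the 8-cell interval lay below 50%, and it overlapped that of siCont (32.3 to 83.7%). In morulae the counts were 12 to 5 and 12 to 6. Rif1 and Ppp1cb had no clear order. Their counts were 9 to 10, 9 to 8 and 5 to 8 in siCont and 9 to 9, 10 to 7 and 8 to 12 in siRif1, and every interval held 50%. All 6 loci were replicated together in 15 of 60 siCont but 2 of 49 siRif1 cells of the 8-cell stage. Of those 15 cells, 8 had progress above the highest siRif1 cell of that stage. At the 4-cell stage the counts were 6 of 49 and 6 of 51, and in morulae 6 of 44 and 3 of 45.

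Other genes of these pathways were described from lists chosen with earlier results of these data known. Of 16 genes that start replication (MCM2 to MCM7, GINS and their loaders), 12 had negative shifts at the 8-cell stage and 14 in morulae, with medians of -6.99 and -10.9 points. Among 8-cell values Gins2 (-26.8 points) and Gins1 (-16.5 points), both of the GINS complex, had the largest shifts. In morulae these were Mcm5 (-33.1 points), a subunit of the helicase that DDK phosphorylates, and Cdc45 (-22.0 points), which joins that helicase. Among all genes the medians were -7.49 and -8.04 points, so this list lay near the genes as a whole. Large later shifts numbered 1 of 16 at the 8-cell stage and 2 in morulae, against 18.2 and 9.98% of all genes.

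Of 15 genes of PP1 regulatory and targeting subunits, 14 had negative shifts at the 8-cell stage (median -13.2 points) and 8 in morulae (median -0.0815 points). Among all genes 71.9 and 74.8% were negative, with medians of -7.49 and -8.04 points. Large later shifts numbered 2 of 15 (13.3%) at the 8-cell stage and 3 (20%) in morulae, against 18.2 and 9.98% of all genes. Ppp1r15a, whose product directs PP1 to a translation factor, had been copied in 43 of 59 control and 16 of 50 siRif1 blastomeres of the 8-cell stage, a shift of -34.7 points. Ppp1r37 had -28.2 points there. Tox4 (-26.5 points), of a chromatin-bound PP1 complex, and Ppp1r7 (-20.2 points), the gene of a conserved PP1 partner, had the largest shifts in morulae. Among 4-cell values 12 of the 15 were negative, with a median of -2.39 points, against 59.6% and -2.31 points for all genes. There 1 gene had a large later and 1 a large earlier shift, against 3.07 and 0.953% of all genes.

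Of 9 genes that act with RIF1 in double-strand break repair, 7 had negative shifts at each of the 2 later stages. Rnf8, a ubiquitin ligase gene, had -28.5 points at the 8-cell stage and -15.8 points in morulae. Mad2l2, a shieldin subunit gene, had -27.2 points at the 8-cell stage, and Trp53bp1, whose product recruits RIF1 to breaks, had -15.8 points in morulae. Of 12 genes of S-phase kinases and the checkpoint, 8 were negative at the 8-cell stage and 9 in morulae. None was large at these stages, against 18.2 and 9.98% of all genes with a large later shift. At the 4-cell stage 1 of the 12 had a large earlier shift, against 0.953% of all genes. Cdc25a, whose product activates cyclin-dependent kinases, had -12.5 and -19.8 points at these stages, Tipin -10.5 points at the 8-cell stage and Chek1, the gene of a checkpoint kinase, -19.6 points in morulae. Of 9 origin licensing genes, 7 and 8 were negative. Cdc6 (-35.4 points) and Cdt1 (-29.5 points), whose products load MCM, were lowest at the 8-cell stage. Orc3 (-15.7 points) and Orc6 (-13.5 points), of the origin recognition complex, were lowest in morulae. The share of negative shifts among all genes, 71.9 and 74.8%, is the background for these counts. Large later shifts numbered 3 of the 9 repair genes and 2 of the 9 licensing genes at the 8-cell stage. In morulae neither list had any, and the shares among all genes were 18.2 and 9.98% at these stages.

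The genes on other chromosomes whose centred shares lay closest to a member's, by mean absolute difference over the 6 groups, were as follows. Sorbs2 (0.758 points) and Tlr3 (1.42 points) on chromosome 8 were nearest to Rif1. Id1 (1.37 points) and Bcl2l1 (1.41 points) on chromosome 2 were nearest to Ppp1cc, with 2.98 and 4.98 points in siRif1 8-cell cells against 2.98 points for Ppp1cc, groups that were also used to pick them. Ceacam15 (1.61 points) and Cks1b (1.80 points) were nearest to Ppp1ca, and Igsf9b (1.70 points) and Havcr2 (2.11 points) to Ppp1cb. Mbd5 (2.07 points) and Kif13a (2.35 points) were nearest to Cdc7. Dbf4 had the least close matches, B3gnt5 (3.45 points) and Olfr870 (3.63 points). Among the members, Rif1 and Ppp1cb were closest (4.24 points) and Ppp1cc and Dbf4 furthest apart (29.2 points).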

How the data were processed

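Single-blastomere whole-genome amplification libraries were the starting point. Build GRCm38 and the tools R 4.2.3, bedtools, Picard, SAMtools and Bowtie2 2.5.1 are named, without roles, by the submitters' processing notes. The sources used here do not give how reads became states. Of 416 labelled cells, 299 have a column. The deposited tables give 0, 1 or NA per 50-kb bin and cell. The state 1 was taken to mean replicated, since gene-bearing bins had a higher mean share of it than other bins in all 6 groups (52.2 against 44.2% in siCont 4-cell cells). No 2 cells of a group were identical, and the least different pair differed at 6.41% of bins.

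Bins with at least 10 measured cells in every group were used. Shares were centred on the group mean over used bins. Timing classes were 5 equal classes by control shares at the other 2 stages. Genes were placed by the midpoint in a RefSeq table (GRCm38.p6). Calculations used Python 3.11.15, numpy 2.4.6, pandas 2.3.3 and scipy 1.17.1. The shares, their intervals and the shifts were tested on simulated data with independent bins and cells. The other steps were not tested in this way. The alternatives were the gene body, the window of 21 bins, raw shares, median centring, percentile ranks, cells between 20 and 80% replicated, cells paired within 5 points and at least 30 measured cells.

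All members are named, as are the 2 genes of each pathway list with the largest absolute shift at the 8-cell stage and the 2 in morulae, and the 2 closest genes per member. The members and lists were chosen with earlier results of these data known. The comparison by progress was chosen after seeing the data.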

Additional observations from a re-analysis of the deposited data

Results flagged for a closer look

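The shifts of 2 loci had opposite signs at the 8-cell and morula stages and differed by 20 points or more. For Ppp1cc the shift was -27.8 points at the 8-cell stage and 2.14 points in morulae, a difference of 30 points. For Dbf4 it was 4.18 and -19.4 points, a difference of -23.6 points. Neither difference was tested, since each group is 1 sample. The opposite sign is lost for Ppp1cc with the window mean in morulae (-3.18 points) and for Dbf4 with raw shares at the 8-cell stage (-2 points). Of all used bins, 8.52% differed in this way between these stages. The 20-point size of this difference was set after seeing the data. Over all 18 pairs of stages at the 6 loci, 10 had shifts of opposite sign, at 5 of the loci (all but Ppp1ca). Over all used bins the signs were opposite in 45.6% between the 4-cell and 8-cell stages, 47.3% between the 4-cell and morula stages and 29.2% between the 8-cell and morula stages.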

How the results depend on the processing

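Of 144 alternative values of the 18 locus shifts, 31 were identical to the reported one, mostly because the gene body lay in 1 bin or all bins had 30 measured cells, and tell nothing. Of the other 113, 111 lay within the half-width of the wider interval of the 2 shares, and 6 changed sign. That half-width was 14.5 to 15.9 points, wide enough to hold a change of sign. Values from percentile ranks are in percentile points, another unit, though they enter all counts given here. Outside lay, with percentile ranks, Ppp1ca at the 8-cell stage (-39.0) and Cdc7 in morulae (21.3, in percentile points). Signs were lost with percentile ranks for Rif1 at the 8-cell stage (2.01) and in morulae (0.952), for Cdc7 at the 8-cell stage (3.59) and for Ppp1cb in morulae (8.07). They were also lost with raw shares for Dbf4 at the 8-cell stage (-2.00) and with the window mean for Ppp1cc in morulae (-3.18). The cause was not tested. Ppp1cc at the 8-cell stage ran from -39.7 to -25, and was large in all 6 alternatives that changed its value. Ppp1ca at the 8-cell stage was large in 5 of 6 such alternatives, and fell short with the window mean (-18.9). Ppp1ca in morulae ran from -21.0 to -14.3. Dbf4 in morulae ran from -31.3 to -15.4, with 3 of 7 at 20 or more. The members' median turned sign with median centring at the 4-cell stage (-0.04) and with ranks in morulae (4.51). All 90 orders within cells stayed inside their intervals in cells between 20 and 80% replicated. Those cells were most of every group (38 of 49 in siCont 4-cell cells), many order values were identical, and the intervals were wide, so this tells little. All 15 list medians moved by under 5 points over gene bodies.

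With 44 to 60 cells per group, counting alone leaves intervals of about 20 to 30 points on a share. Read depth and the smoothing behind the states are unknown. No paired analysis was possible because the cell numbers in the labels only count cells within a group and no animal, litter or day links them across groups.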

Other observations

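A pattern at Ppp1cc in siRif1 morulae was picked out after its values were seen. Cells with it replicated had a median progress of 45.1% and cells without it 62.5%, a difference of -17.4 points. Only 0.0826% of bins in that group had a lower value, and 3.91% were below 0, as were 13.5% of the earliest of 5 classes of bins. In siCont morulae the same difference was 6.34 points. All 3 siRif1 morula cells above 75% progress lacked it (0 of 3, upper limit 70.8%), whereas between 50 and 75% progress it was replicated in 15 of 18 cells (83.3%), as in siCont. The 3 cells above 75%, at 75.2, 81.9 and 90.8% progress, had 0, 8 and 4 of the 21 window bins replicated. Of the used bins 0.535% were unreplicated in all 3 cells, and 0.133% of the earliest of 5 classes. Over the 36 pairs of locus and group, 5 had a difference below 0. Over all bins the share below 0 ran from 0.17 to 5.14% in the 6 groups, and in the earliest of 5 classes from 0.308 to 13.5%. Besides Ppp1cc, the differences below 0 were at Cdc7 in siCont 8-cell (-0.49 points) and siRif1 4-cell cells (-2.43 points), Ppp1ca in siCont morulae (-3.52 points) and Ppp1cb in siRif1 8-cell cells (-1.76 points).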
